A study of Saccharomyces cerevisiae with 11 samples.

Results

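The nap1 deletion of budding yeast was compared with its parent, the MATalpha strain BY4742, on 1 array without any drug. It was the 1 array, of 11 in all, whose label names the nap1 deletion and no trichostatin A (TSA), an inhibitor of histone deacetylases. The other 10 arrays held the asf1, chz1, rtt106 and vps75 deletions without TSA, the 5 deletion strains after 10 µM TSA for 1 hour, and the wild type after TSA. The label of the chz1 array without TSA names glucose, which every medium held. All strains, the wild type included, carried the marker deletions of BY4742, and each deletion strain lacked 1 chaperone gene, removed by homologous recombination per the labels. On the untreated chz1 array and on the TSA arrays of the deletion strains, the labels give the deletion strain for the reference channel too, although the description names wild type RNA. Cultures grew at 30 °C in medium with 1% yeast extract, 2% peptone and 2% glucose. The density at harvest was given for the TSA cultures alone (OD600 of 0.5). How many clones were tested was not given in the sources used here. Each array measured 6256 genes with 1 probe per gene in 2 channels, 1 for the strain and 1 for wild type RNA, and each channel was read in 2 repeat measurements. These repeats are technical, so the nap1 deletion has no biological replicate, and no p-value was computed from the array alone.

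Nap1 is a histone chaperone that binds H2A-H2B dimers. It shields them from nonspecific contacts with DNA, helps place them into nucleosomes, and travels with them to the nucleus on the importin Kap114. In yeast it also binds the mitotic cyclin Clb2 and the bud neck kinase Gin4, and it is known there for a role in the switch of bud growth at mitosis. The question put to the array was which transcripts differ when this chaperone is missing from cells in rich medium.

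Ratios are given as the log2 of nap1 deletion over wild type, so that 1 is a doubling, after 50 was added to each signal and a loess curve was removed. NAP1 (YKR048C) had signals of 37 and 43 in the deletion channel and 790 and 884 in the wild type channel. The channels did not overlap, and the log2 ratio was −3.31 in the first and −3.32 in the second measurement. The authors' deposited table gives a fold of −20.9, which has no added 50. On this array NAP1 was low in the column that holds the wild type on the other arrays, and the direction used here rests on that gene. On the nap1 deletion with TSA the ratio was −4.53, and on the other 9 arrays NAP1 lay between −0.18 and 0.16. URA3, LEU2, HIS3 and LYS2, the genes missing from BY4742, were below the detection limit in both channels, at signals of 6 to 21. Of the genes that mark the mating type, SAG1, the agglutinin of MATalpha cells, reached 4772 to 7498, whereas the pheromone receptor of MATa cells, STE2, stood at 49 to 55.

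The nap1 array stood apart from the other arrays in both channels. Levels for this comparison are log2(signal + 50) minus the median of the channel. Across genes, the wild type references of the 9 other arrays without that of the chz1 deletion correlated with each other at 0.983 to 0.998. The wild type reference of the nap1 array correlated with those 9 at 0.795 to 0.812 and with the chz1 reference at 0.747. The chz1 reference correlated with the 9 at 0.914 to 0.944. Within the nap1 array the deletion and the wild type correlated at 0.988, as close as the channels of the other arrays (0.963 to 0.994). Over both columns, either channel of the nap1 array correlated with any channel of the other arrays at 0.724 to 0.814, so the column made little difference. Both nap1 channels thus resemble each other far more than either resembles another array. Whether the cultures, the RNA, the labelling or the array differed was not tested, and with 1 array these cannot be told apart. Median signals were 472 for the deletion and 474 for the wild type, and the median signal of the 4 missing markers was 13 and 7.

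The largest group of differences was upward. Of 6199 genes detected in at least 1 channel, 41 were at least 2-fold higher in the nap1 deletion (0.661%) and 3 at least 2-fold lower (0.0484%). At 1.5-fold the counts were 124 higher (2.00%) and 25 lower (0.403%). The lower genes past 2-fold were NAP1 itself, YGR079W and PHO89. All 41 and all 3 passed 2-fold in both repeat measurements, which across all genes correlated at 0.917. The SD between the 2 measurements had a median of 0.0366 on the log2 scale and a 95th percentile of 0.138. This spread is technical and holds nothing of the spread between cultures. The fold limit cut through a continuous range, with HSP12 at 1.07 and GAD1 at 1.09 just inside it and YPS3 at 0.999 and SLT2 at 0.986 just outside. On the lower side PHO89 at −1.39 was the nearest inside and RRN11 at −0.92 the nearest outside.

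**Figure D1:**
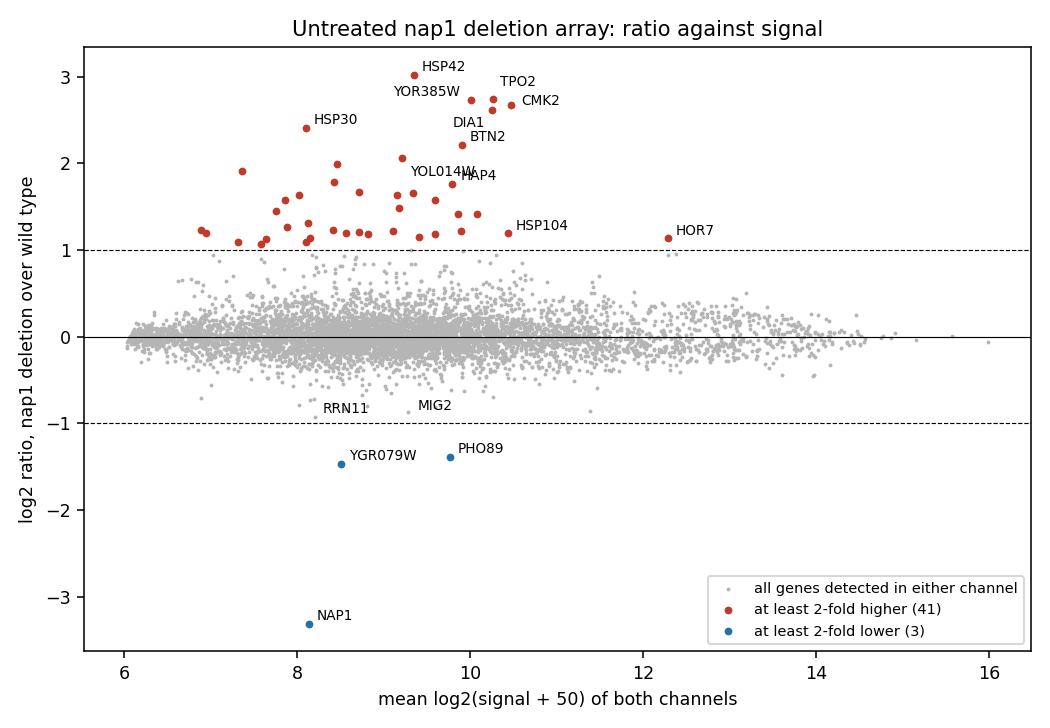
Log2 ratio of nap1 deletion over wild type (vertical axis) against the mean log2(signal + 50) of both channels (horizontal axis), 1 point per detected gene, with dashed lines at 2-fold. The 41 higher genes spread over dim and bright signals, and NAP1 lies alone at −3.31.

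The gene with the highest ratio encodes a chaperone. Among the 15 highest, HSP42, HSP30 and BTN2 belonged to the heat shock list, ROQ1 and SPI1 to the general stress list, SPI1 to the cell wall list as well, and the other 10 to no list. HSP42, a small heat shock protein that gathers misfolded proteins into aggregates, had signals of 1793 and 1802 in the deletion and 188 and 174 in the wild type. Its log2 ratio was 3.02. HSP30, a stress protein of the plasma membrane that restrains the proton pump Pma1, gave 588 and 590 against 78 and 60 (2.41). BTN2, which sorts misfolded proteins to their deposit sites, gave 1962 and 2035 against 377 and 418 (2.21). In each of the 3 genes the deletion lay above the wild type in both measurements with no overlap. The naming rule asks for both measurements past 1.5-fold, so this separation was largely set by the choice of genes. ROQ1, a stress-induced protein that redirects the ubiquitin ligase Ubr1, had the dimmest wild type signals of this group. It gave 255 and 298 in the deletion against 29 and 37 (1.91), and its ratio ranged from 0.999 with an offset of 200 to 3.06 with the deposited ratio. HSP104, the disaggregase, was bright in both channels, with 2030 and 2071 against 866 and 858 (1.19). HSP12, a membrane-stabilising stress protein, and GAD1, glutamate decarboxylase, were the higher genes nearest the 2-fold limit on its inside. The ratios of HSP42 (2.41 to 3.33), HSP30 (1.55 to 3.09), STP4 (1.39 to 2.37) and TDA6 (1.04 to 2.10) also moved with the settings, as did that of NAP1 (−4.43 to −2.10).

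Other high genes act in transport, signalling and the cell surface. TPO2, a polyamine exporter of the plasma membrane, gave 3206 and 3027 in the deletion against 365 and 487 in the wild type (2.74), with ratios of 2.95 and 2.53 in the 2 measurements. Its close relative TPO3 stood at 0.85, and since the sequences are alike the probes may not tell them apart. CMK2, a calmodulin-dependent protein kinase, gave 3929 and 3216 against 536 and 483 (2.67). RCN2, which binds the calmodulin-dependent phosphatase calcineurin, gave 1046 and 1148 against 290 and 348 (1.66). For CMK2 and RCN2 the channels did not overlap, which the naming rule largely sets. SPI1, a cell wall protein with a lipid anchor, gave 595 and 574 against 132 and 139 (1.78). PIC2, a mitochondrial carrier of phosphate and copper, gave 681 and 715 against 178 and 197 (1.67). DIA1, which was named for its link to invasive growth, gave 2463 and 3502 against 364 and 521 (2.62). Its second measurement was brighter in both channels, and its ratio was 2.59 in the first and 2.65 in the second.

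Of the regulators among the 15 highest genes, HAP4 encodes the activating subunit of the factor that turns on respiratory genes. It gave 1557 and 1598 in the deletion against 418 and 455 in the wild type (1.76). STP4, a zinc finger protein, gave 637 and 672 against 118 and 137 (2.00). For both, the 2 measurements of a channel were close to each other and far from those of the other channel. The naming rule largely sets the distance between the channels. YOR385W (2.73), YOL014W (2.06) and TDA6 (1.64) completed the 15. The other 26 genes past 2-fold lay between 1.07 and 1.63. Of the 41 genes, 12 belonged to any of the 44 gene lists examined, which held 989 of the 6256 genes on the array. The lists were chosen with earlier results of these data known.

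**Figure D2:**
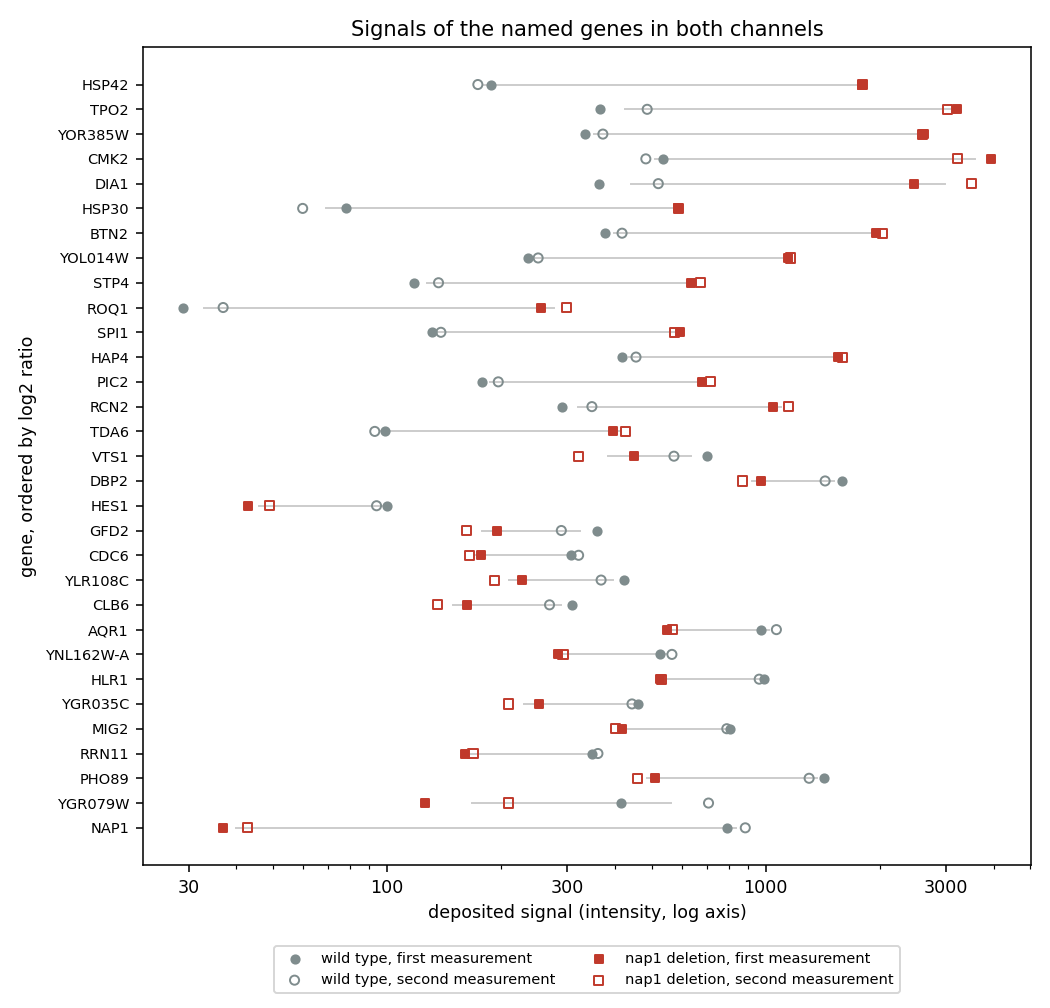
Deposited signals (log axis) of the 15 highest genes, the 15 lowest and NAP1, with circles for wild type and squares for the nap1 deletion, filled for the first and open for the second measurement, and lines between the channel means. In the higher genes both squares lie right of both circles, in the lower genes left of them, which the naming rule largely sets.

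The lower genes were fewer and smaller in size. PHO89, a sodium-coupled phosphate importer, gave 511 and 460 in the deletion against 1429 and 1303 in the wild type (−1.39). YGR079W, a gene without a known function, gave 126 and 210 against 416 and 707 (−1.47). In both the channels did not overlap, which the naming rule largely sets. RRN11, a subunit of the core factor of RNA polymerase I, gave 161 and 169 against 349 and 361 (−0.92). MIG2, a repressor of glucose-repressed genes, gave 417 and 401 against 805 and 790 (−0.86). CLB6, a cyclin that starts S phase, stood at −0.79 with 163 and 136 against 308 and 269. CDC6, which loads the replicative helicase at origins, stood at −0.73 with 177 and 165 against 306 and 321. Both act at the start of DNA replication, and neither reached 2-fold. Over the settings RRN11 ranged from −1.12 to −0.61, CLB6 from −0.98 to −0.50 and CDC6 from −0.89 to −0.48.

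The rest of the 15 lowest genes lay between −0.83 and −0.65. They included the exporter gene AQR1 (−0.79), HES1 of the oxysterol-binding family (−0.70, ranging from −1.25 to −0.31), the RNA helicase gene DBP2 (−0.69) and VTS1, which binds hairpins in messenger RNA (−0.65). YGR035C (−0.83), HLR1 (−0.81), YNL162W-A (−0.80), YLR108C (−0.77) and GFD2 (−0.72, ranging from −0.87 to −0.48) lay among them. Every one of these genes was lower in both measurements by at least 1.5-fold, as the naming rule requires.

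The level of each channel was set beside those of the other arrays, although the nap1 array stood apart from them in both channels. The genes were chosen by a ratio that holds both levels, so what follows is a description. For the 41 higher genes the wild type level of the nap1 array was below the reference of all 10 other arrays in 30 (73.2%). Among all genes tested this held for 33.6%. Without the chz1 reference, which also stood apart, it held for 39 of the 41 (95.1%, against 43.5% of all genes). The deletion level was above the experimental channel of all 10 other arrays in 3 of the 41 (7.32%, against 23.5% of all genes). These 3 were BTN2, HAP4 and YPS1. The median deviation of the 41 genes was −1.52 for the wild type, from the median of the other references, and 0.20 for the deletion, from the median of the other experimental channels. Which channel sets these ratios was not tested.

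Single genes show both patterns. CMK2 had a wild type level of 0.09 on the nap1 array and 0.74 to 3.76 in the other references, where the lowest was that of chz1. Its deletion level of 2.80 lay within the 1.85 to 3.39 of the other experimental channels. HSP42 had −1.18 in the wild type against −0.24 to 1.66 elsewhere, with chz1 again the lowest, and 1.82 in the deletion against 0.83 to 2.15. In these 2 genes the wild type channel was the one outside the range. HAP4 had −0.11 in the wild type, within the −0.22 to 0.19 of the other references, and 1.64 in the deletion against 0.23 to 1.18. BTN2 had −0.23 in the wild type against −2.26 to 1.40, where the lowest was chz1 too, and 1.97 in the deletion against 0.09 to 1.22. In HAP4 the deletion channel was the one outside the range. In BTN2 the deletion channel was outside it, and the wild type was within it only through the chz1 reference. The 9 references without chz1 had 1.07 to 1.40 for BTN2, so against those both channels were outside.

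Of the 25 genes at least 1.5-fold lower, 14 had a wild type level above all 10 other references (56%, against 29.5% of all genes). In 5 of the 25 the deletion level was below all other experimental channels (20%, against 29.8% of all genes). One of the 25, GCS1, had repeat measurements of −1.65 and −0.07 that did not match, and it was singled out after its values were seen. RRN11 had −0.37 in the wild type against −0.46 to −0.07 in the other references, and −1.28 in the deletion against −0.56 to 0.05. YGR079W had 0.22 in the wild type, above the −1.28 to −0.38 of the other references, and −1.26 in the deletion against −1.24 to −0.37. PHO89 had 1.43 in the wild type against −1.51 to 1.30, and 0.04 in the deletion against −1.13 to 0.50. RRN11 was thus below the range in the deletion channel, as 29.8% of all genes were. PHO89 was above it in the wild type channel, as 29.5% of all genes were. YGR079W was above the range in the wild type, and its deletion level lay only just below the lowest of the others. The reference level of NAP1 was 0.76 on this array against 1.88 to 2.42 in the other references, so NAP1 itself was less bright in the wild type RNA here.

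**Figure D3:**
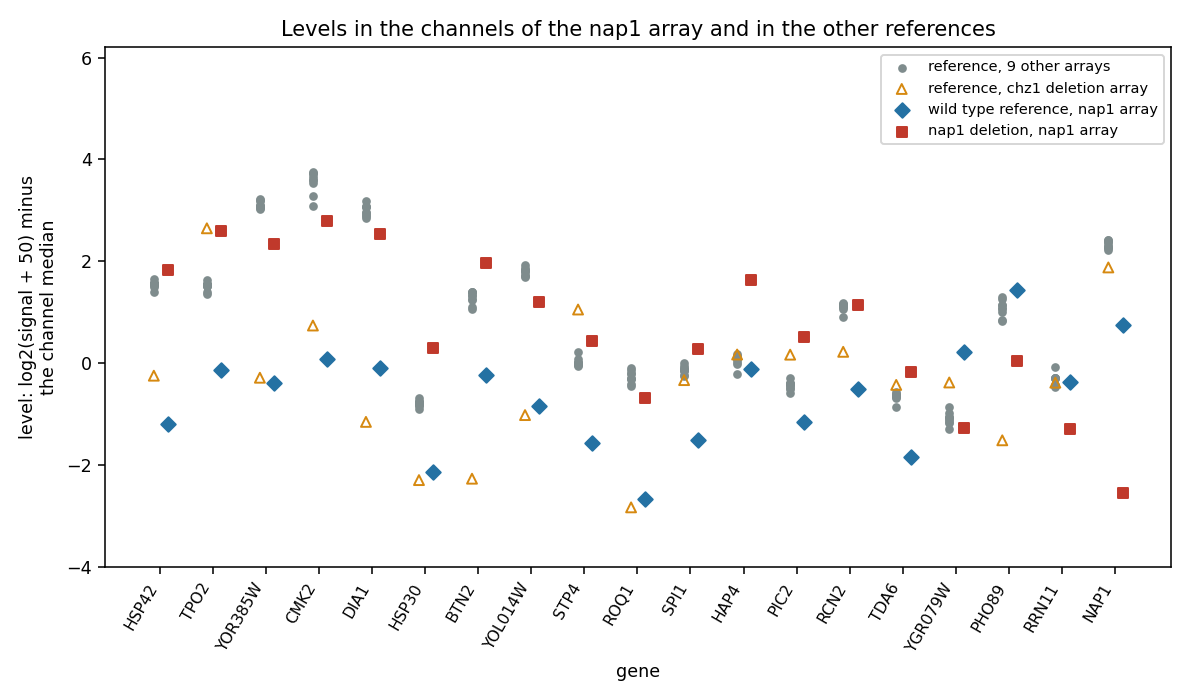
Levels, as log2(signal + 50) minus the channel median (vertical axis), of the 15 highest genes, the 3 lowest after NAP1, and NAP1. Diamonds show the wild type and squares the deletion on the nap1 array, circles the references of 9 other arrays and triangles that of the chz1 array. For most higher genes the diamond lies below the circles.

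The histone genes, which encode the cargo of Nap1, differed little. HTA1 and HTB1, one of the H2A-H2B gene pairs, stood at −0.01 and 0.14. The signals of HTA1 were 5701 and 5480 in the deletion and 4943 and 4781 in the wild type, so its ratio near 0 is what the loess step left of a higher deletion signal. The second pair, HTA2 and HTB2, stood at 0.24 and 0.10. HTA2 had the highest ratio of the 8 core histone genes, with signals of 3233 and 3605 in the deletion and 2526 and 2853 in the wild type. The H3 and H4 genes HHT1, HHF1, HHT2 and HHF2 stood at 0.02, 0.10, 0.10 and 0.14. The median of the 8 was 0.10 (0.09 to 0.33 under the other settings), and 0 of 8 passed 1.5-fold in either direction, where 2.00% and 0.403% of all genes did. Paralogous histone genes are nearly identical in their coding parts, and the probes may not tell them apart. HTZ1 (0.04), the variant H2A.Z, CSE4 (0.08), the centromeric H3, and the linker histone gene HHO1 (0.06) were as close to 0.

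Genes that handle histones were also near 0. Of 10 genes listed under H2A-H2B handling, 0 passed 1.5-fold and the median was −0.01. The list holds FACT and importins, and also RTT102 (0.09) and SPT2 (−0.09). The member farthest from 0 was NHP6A, which works with FACT, at −0.20, and the importin gene KAP123 stood at −0.04. The 24 genes of the SWR1 and INO80 complexes, which exchange H2A.Z, had a median of −0.05 with 0 past 1.5-fold, and SWC5 was lowest at −0.22. The 12 H3-H4 chaperone genes had a median of −0.08 with 0 past 1.5-fold. Here CAC2 and RLF2, subunits of CAF-1, stood at −0.29 and −0.26 and RTT106 at −0.26. Since 2.00% and 0.403% of all genes passed 1.5-fold, counts of 0 in lists of this size are near the background. Silencing factors had a median of −0.17 with 0 of 17 past the limit, and the deacetylase gene SIR2 was lowest among them at −0.38.

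The bud neck genes bear on the morphogenesis role of Nap1. Of 21 such genes, 0 passed 1.5-fold, and the median was −0.08. CLB2, the mitotic cyclin that Nap1 binds, was lowest, with 487 and 524 in the deletion against 698 and 753 in the wild type (−0.46). The kinase gene ELM1 stood at −0.28 and NIS1 at −0.24, while the septin gene CDC10 stood at 0.17. Of 20 genes of G1 and S phase, 2 were lower by 1.5-fold (0.403% of all genes), CLB6 (−0.79) and the repressor gene YOX1 (−0.67), and the median was −0.10. Of 20 genes of G2 and M phase, 1 was lower, CDC6, and 19 lay below 0, with a median of −0.17, whereas 3070 of all genes lay above and 3129 below 0. The wall sensor gene WSC4 was the exception at 0.52. The share of cells in each phase was not measured, so levels per cell and shares of cells cannot be told apart in this bulk RNA.

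Among the lists of other pathways the largest medians were those of stress genes. Of 35 general stress genes, 11 were at least 1.5-fold higher (2.00% of all genes) and 0 lower (0.403% of all genes), 31 lay above 0, and the median was 0.45 against 0.00 for all genes. ROQ1, SPI1, PNC1 (1.41), the nicotinamidase gene, and GLK1 (1.21), the glucokinase gene, were highest. Of 25 heat shock chaperone genes, 7 were at least 1.5-fold higher and 0 lower, against the same shares of all genes, with a median of 0.35. Of 39 cell wall genes, 6 were higher and 0 lower, again beside 2.00% and 0.403% of all genes, with a median of 0.08. After SPI1 the highest of these were the yapsin protease genes YPS1 (1.15) and YPS3 (0.999) and the MAP kinase gene SLT2 (0.986). Under the other settings tried the medians lay between 0.26 and 0.56 for general stress, 0.31 and 0.51 for chaperones, and 0.08 and 0.35 for the wall. Of the general stress genes, 22 of 35 had a wild type level below that of all 10 other references, where 33.6% of all genes did. Of the chaperone genes 7 of 25 had one, a share below that of all genes. The part of the wild type channel in these counts was not tested. On the other untreated arrays the general stress median was 1.10 for asf1, 0.14 for chz1, 0.34 for rtt106 and 0.09 for vps75. That of asf1 was thus above the nap1 value. The chaperone median was −0.25, 0.34, 0.01 and −0.09 in the same order.

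Ribosome assembly genes lay on the other side. Of 73 ribosome biogenesis genes, 68 were below 0 (3129 of 6199 genes overall) and 1 was lower by 1.5-fold (0.403% of all genes), DBP2, with a median of −0.27. MAK16 (−0.57), SSF1 (−0.55) and CIC1 (−0.49), which act on the large subunit, were the next lowest. The median stayed between −0.28 and −0.14 under the other settings. The 54 ribosomal protein genes had a median of −0.14 with 0 past 1.5-fold, and this direction depended on the scaling, since it ranged from −0.14 to 0.14. Of 38 genes of the respiratory chain and the ATP synthase, 37 lay above 0 (3070 of 6199 genes overall), 4 were at least 1.5-fold higher (2.00% of all genes), and the median was 0.22. COX5B (0.73), a subunit of cytochrome oxidase, NDE1 (0.72), an NADH dehydrogenase, CYT1 (0.70), cytochrome c1, and QCR8 (0.63), of the same complex, were highest. Transcripts encoded in the mitochondrial genome had a median of −0.09 and ranged from −0.31 to 0.03. In 40 of the 73 ribosome biogenesis genes the wild type level was above all 10 other references, where 29.5% of all genes were. In 23 of the 38 respiratory genes it was below all 10, where 33.6% of all genes were. Which channel sets these medians was not tested.

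**Figure D4:**
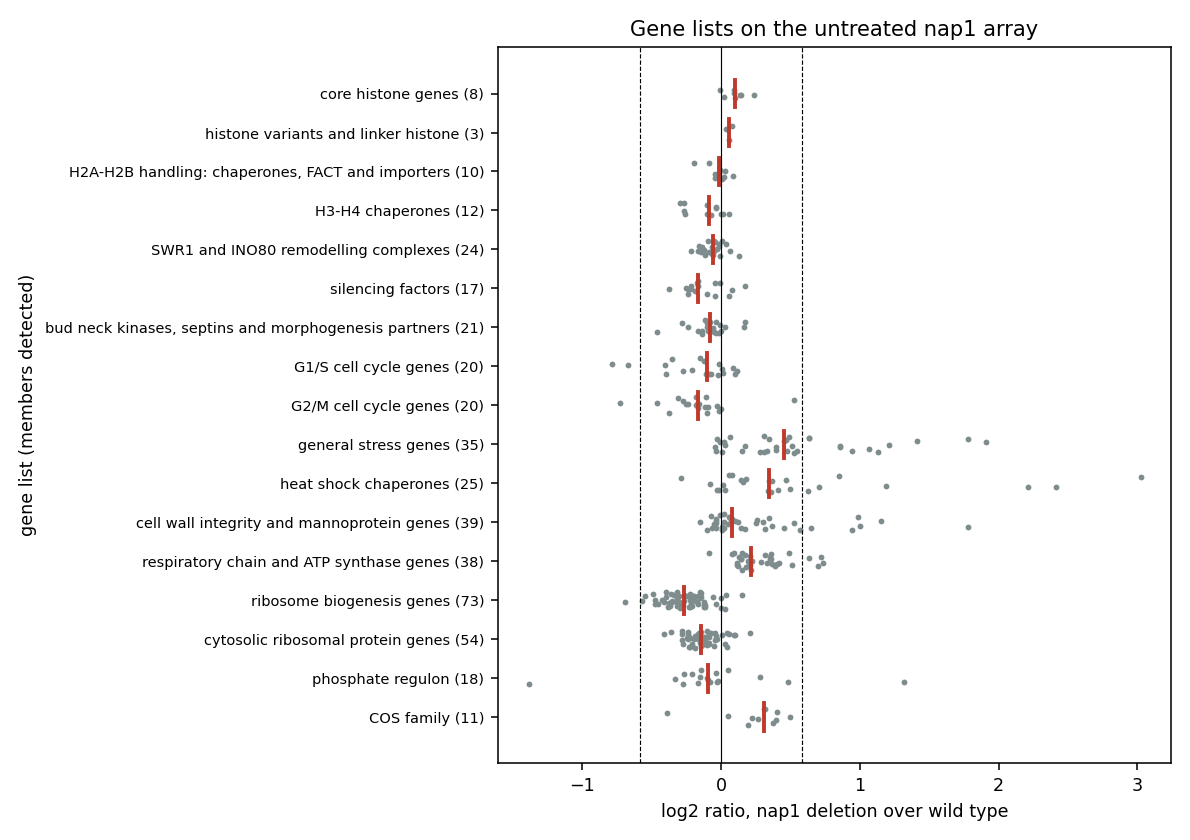
Log2 ratio of nap1 deletion over wild type (horizontal axis) for the members of 17 gene lists, 1 point per detected gene, with a red line at the median and dashed lines at 1.5-fold. Histone and chaperone genes cluster near 0, general stress genes have a median of 0.45 and ribosome biogenesis genes one of −0.27.

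In the nutrient lists few members passed 1.5-fold, where 2.00% of all genes were higher and 0.403% lower. Little can be read from counts of 0 or 1 in lists of this size. In the phosphate regulon, 1 of 18 genes was at least 1.5-fold higher, the phosphatase gene PHM8 (1.32), and 1 lower, PHO89. PHO84, the main phosphate importer, gave 18846 and 19219 in the deletion against 16770 and 18234 in the wild type, yet stood at −0.33 after loess. Its direction therefore depends on the normalization. Of 26 iron genes, 1 was lower, the siderophore transporter gene SIT1 (−0.62), and the metalloreductase gene FRE1 stood at −0.53. Of 15 copper and zinc genes, 2 were higher and 1 lower. The metallothionein genes CUP1-1 and CUP1-2 stood at 0.94 and 0.95, and since they are near-identical they are 1 measurement rather than 2. The zinc importer gene ZRT1 stood at −0.60, and ZAP1, which activates it, at −0.54. The 11 COS genes, a family near chromosome ends, had a median of 0.31 with 0 past 1.5-fold, and they too are near-identical. Of 20 glycolytic genes, 0 passed 1.5-fold, and the median of −0.11 turned with the scaling, ranging from −0.12 to 0.24.

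Other lists had at most 1 member past 1.5-fold, where 2.00% of all genes were higher and 0.403% lower. In each of the pheromone response, NAD synthesis and hypoxic lists 1 gene was higher, namely PRM5 (0.65), PNC1 and COX5B, with medians of 0.10, 0.17 and 0.07. The a-specific genes had a median of −0.02 and the alpha-specific genes one of 0.24, with 0 of 7 and 0 of 4 past the limit. The lists of M/G1 genes (0.01), histone variants (0.06), histone deacetylases (0.02), histone acetyltransferases (−0.05), unfolded protein response (−0.00), hexose transporters (0.02) and glucose-repressed genes (0.03) had 0 members past it. So had those of sulfate and methionine (−0.16), GCN4 targets (−0.01), nitrogen catabolite repression (−0.05), ergosterol (−0.01), thiamine (−0.00), seripauperins (0.05), DNA damage (−0.01) and sporulation (−0.01). Proteasome genes (0.07), mitochondrial ribosomal proteins (0.06) and drug resistance genes (0.07) were alike in this. The values in parentheses after a list are medians of log2 ratios.

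The genes next to NAP1 were examined because a deletion cassette can alter them. By systematic name, YKR047W (−0.08), PLN1 (0.26) and YKR045C (0.06) stood on one side and FMP46 (0.19), TRK2 (0.55) and HFL1 (−0.18) on the other. TRK2, a potassium transporter, was farthest from 0, with 453 and 417 in the deletion against 296 and 271 in the wild type, and stood at 0.57 with TSA. The 2 measurements of YKR047W were 0.02 and −0.18. Elsewhere, 7 of the 41 higher genes (17.1%) had a directly adjacent gene that was at least 1.5-fold higher, against 3.95% of all genes with a position. Examples are YPS1 beside YPS3, MGA1 (1.20) beside RIE1 (1.18) and SOL4 (0.95), and TPO2 beside LSB1 (0.75). MGA1 and RIE1 are neighbours of each other, so both count among the 7. YPS1 and YPS3 are related in sequence, and whether their probes bind both transcripts was not tested.

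The same strain after TSA served as a second look at the deletion, although the treatment differs and the 2 arrays are not replicates. The labels of the reference on that array disagree, but NAP1 was bright there, at a signal of 3604. TPO2 stood at 2.74 without and 1.75 with TSA, STP4 at 2.00 and 1.68, and HSP30 at 2.41 and 1.47. HAP4 stood at 1.76 and 1.02, and PHO89 at −1.39 and −1.08. These 5 genes lay past 2-fold on both arrays, in the same direction. Of the 41 higher genes, 10 were at least 2-fold higher with TSA too, 24 lay within 1.5-fold of the wild type there, and 7 of the 41 lay below 0. Among all genes detected on the TSA array, 14 were at least 2-fold higher. The median there of the 6199 genes tested was −0.002. The difference between the arrays was not tested. CMK2 stood at 2.67 and −0.01, YOR385W at 2.73 and −0.08, DIA1 at 2.62 and 0.16, and YGR079W at −1.47 and −0.03. HSP42 was between, at 3.02 and 0.57. Over the 41 higher genes the median was 1.41 without TSA and 0.47 with it, and single values with TSA ran from −0.56 to 1.75.

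The other deletions without TSA were measured once each, each against the reference of its own array. Over the 41 genes their medians were 0.21 for asf1, 0.76 for chz1, −0.20 for rtt106 and −0.25 for vps75. HSP42 stood at −0.45 in asf1, 2.06 in chz1, −0.66 in rtt106 and −0.36 in vps75. CMK2 stood at −0.77, 1.47, −1.23 and −1.11, and BTN2 at −1.01, 3.09, −1.02 and −0.55 in the same order. For these genes chz1, whose reference stood apart and is labelled as the deletion strain, was the array above 0. TPO2 stood at 0.31, −1.91, 0.15 and −1.10, where chz1 was the lowest. PHO89, at −1.39 in the nap1 deletion, stood at −0.79, 0.93, −1.25 and −1.87, so vps75 was lower still. HAP4 stood at 0.78, 0.81, 0.17 and 0.52, above 0 in each. In wild type cells after TSA, HSP42 stood at −0.27, CMK2 at −0.92, BTN2 at −0.58 and HAP4 at 0.71. Over the 41 genes the median there was −0.23. Values below 0 for HSP42, CMK2 and BTN2 were thus not confined to deletion strains, although the treatment differs.

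**Figure D5:**
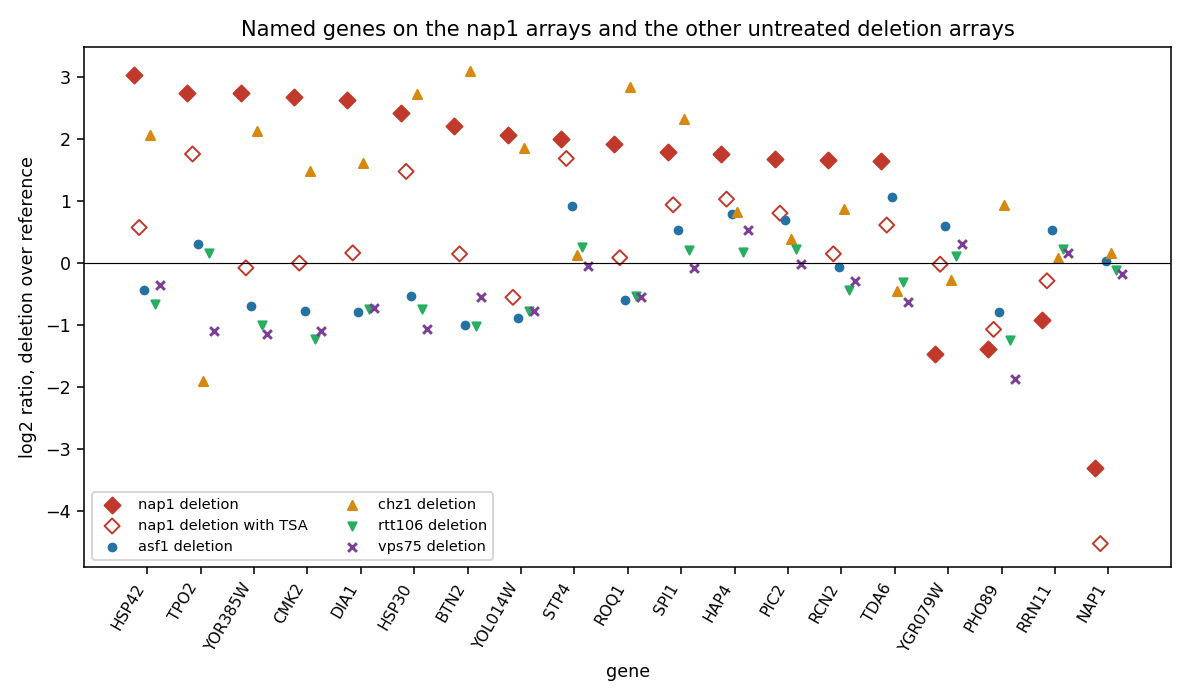
Log2 ratios of deletion over reference (vertical axis) of the 15 highest genes, the 3 lowest after NAP1, and NAP1, on the nap1 array (filled diamonds), the nap1 array with TSA (open diamonds) and the 4 other untreated deletion arrays. NAP1 is low on the 2 nap1 arrays alone, and for HSP42, YOR385W, CMK2, DIA1, HSP30, BTN2, YOL014W and ROQ1 chz1 lies above 0 while asf1, rtt106 and vps75 lie below it.

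The difference between the nap1 deletion and the mean of the other 4 was tested with limma, with Benjamini-Hochberg adjustment over all genes tested. It sets 1 array against 4, so the nap1 array is taken to vary like the others. Of 6029 genes, 1 was called (0.0166%), NAP1, with a difference of −3.28 (SE 0.206, adjusted p = 0.0369). The columns of the array were assigned by NAP1, so its value describes that choice and supports nothing, and with the columns exchanged it was called at 3.34 (adjusted p = 0.0333). Before adjustment 155 genes were under 0.05, of which 106 were higher and 49 lower. The genes next in order were NRG1 (1.26), a repressor of glucose-repressed genes, COM2 (1.46), YPS1 (1.39), RRN11 (−1.16) and EDC2 (0.85), which stimulates mRNA decapping. YGR079W (−1.65), PIN3 (1.04), PIC2 (1.35) and YNL162W-A (−0.92) followed. The adjusted p of all these genes was 1.00. Of the 3 genes at least 2-fold lower on the array, only NAP1 was called.

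The test depended on single arrays. Without the chz1 array limma called 7 genes (0.116%), 6 higher and NAP1 (−3.22, adjusted p = 0.0123). The 6 were DIA1 (3.38), YOL014W (2.88), HSP42 (3.51) and ROQ1 (2.48), all with adjusted p = 0.0123, and YOR385W (3.68) and CMK2 (3.71), both with adjusted p = 0.0197. The wild type level of these 6 genes was below that of the 9 other references, as it was in 39 of the 41 higher genes. Each ratio holds the reference of its own array, and that of the nap1 array stood apart. The part of the reference in these differences was not tested. Without asf1, rtt106 or vps75 the test called 0 genes, and NAP1 was then at adjusted p = 0.344, 0.401 and 0.225. Median centring in place of loess left 0 calls, with NAP1 at adjusted p = 0.0604 by limma.

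With both treatments, limma was run on 10 deletion arrays with a term for TSA. Of 5942 genes, 1 was called (0.0168%), NAP1, with a difference of −3.91 (SE 0.226, adjusted p = 4.7e-05), again the gene that assigned the columns. The 2 arrays of a strain may share a culture, which would make this p too small. Next came FMP48 (0.85), a mitochondrial protein kinase, ALD4, the mitochondrial aldehyde dehydrogenase, which was lower, and NRG1 (0.85), all with adjusted p = 0.699. FMP48 stood at 1.23 without and 1.07 with TSA. ALD4 stood at −0.03 and −0.15 in the nap1 deletion and averaged 0.83 in the other 4 without TSA. YGR139W (0.58), VAM10 (0.52), BNA5 (0.61), ARK1 (0.45), GPM1 (−0.43) and SMC1 (−0.36) were named by rank only. Before adjustment 207 genes were under 0.05, of which 123 were higher and 84 lower.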

How the data were processed

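Total RNA was compared on 11 two-colour Agilent yeast arrays. Per the file headers, the authors deposited 2 repeat intensity measurements per channel, a log10 ratio and a signed fold (a score with no fixed range), and the series matrix holds log2 values of that fold rounded to 1 decimal. Background correction, scaling, scanner software and genome build are not given in the sources used here. In the matrix, the vps75 columns hold each other's file.

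The column with low NAP1 was taken as the deletion. After an offset of 50, log2 ratios were loess-normalized within each measurement with limma 3.58.1 in R 4.3.3 and averaged. Detection required a signal over 2 times the channel's median for the 4 markers missing from BY4742. Symbols came from RefSeq R64 for 5756 of 6256 genes. Fits used lmFit and eBayes (Benjamini-Hochberg, 0.05) on genes detected on at least 3 of 5 or 5 of 10 arrays, and were tested on simulated data. The 1 array allows counts past 2-fold and 1.5-fold with no p-value. The number of arrays limits the precision, and the p-values measure only the spread between these arrays.

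Named genes are NAP1 and its neighbours, up to 15 highest and 15 lowest with both measurements past 1.5-fold, up to 4 per list, all histone and marker genes, up to 10 per contrast, and those nearest the 2-fold limit. Of these 44 lists, 1012 of 1020 entries were matched. The members and lists were chosen with earlier results of these data known. TPO3, MGA1, RIE1, SOL4 and LSB1 were chosen after their values were seen. Alternatives changed the offset, normalization, ratio source, filter, direction and arrays fitted, with array weights added after seeing the data.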

Additional observations from a re-analysis of the deposited data

Results flagged for a closer look

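NAP1 differed between the nap1 deletion and the other deletions by limma's test of the difference itself. Without TSA the difference from the mean of the other 4 was −3.28, and over both treatments it was −3.91. NAP1 is the deleted gene and the one that assigned the columns of the array, so its difference is a description and supports nothing, and its ratio was −3.31 without and −4.53 with TSA.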

How the results depend on the processing

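No paired analysis was run, since the labels give the nap1 deletion no replicate number and its 2 arrays differ in treatment. The fit over both treatments had a term for TSA and none that links the 2 arrays of a strain. The count of genes at least 2-fold higher was 41, with 22 at an offset of 200, 68 with the deposited ratio or the matrix, 70 with scale normalization and 3 with the sign turned. The count lower was 3, with 5 without an offset, 6 with the deposited ratio or the matrix, 9 with scale normalization and 41 turned. Of list members, 30 were at least 1.5-fold higher, 49 with the deposited ratio or the matrix and 7 turned. Of list members, 7 were lower, with 14 without an offset, 2 at an offset of 200 and 30 turned. The median with TSA of the 41 genes was 0.47, with 0.42 at an offset of 200 and 0.52 with the deposited ratio. Turning the array gives every gene and list value the opposite sign by construction. In the other settings the 31 named genes kept their sign in 217 of 217 comparisons and the list medians in 327 of 387. Apart from NAP1, these genes were named because both measurements lay past 1.5-fold on this array. Their kept sign was therefore largely set by the choice of genes.

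Against the other 4 deletions, leaving out 1 strain gave 0 to 7 calls, with 7 without chz1 and 0 without asf1, rtt106 or vps75. Median centring gave 0, with NAP1 at adjusted p = 0.0604 by limma, and trend with robust eBayes gave 0, with NAP1 at adjusted p = 1.00. With the nap1 array turned the differences were 3.34 for NAP1, −0.63 for NRG1, −1.36 for COM2, −0.92 for YPS1, 0.68 for RRN11, −0.72 for EDC2, 1.29 for YGR079W, −0.43 for PIN3, −1.99 for PIC2 and 0.69 for YNL162W-A. Over both treatments, leaving out 1 strain gave 1 call each, scale normalization 7 and the turned array 0. Turned, FMP48 stood at −0.38, NRG1 at −0.10 and ARK1 at −0.048. With the matrix YGR139W stood at −0.020 and VAM10 at −0.076. The cause of these changes was not tested. The single array without a biological replicate limits every value here, and dim genes rest on signals near those of the missing markers.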
